A study of Mus musculus with 2 samples.

Results

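The tubulins, kinesins and dyneins of the mouse lens are described here, with cortical fiber cells set against epithelial cells. The members are the genes whose array probe carries 1 platform gene symbol beginning with Tuba, Tubb, Tubd, Tube or Tubg, with Kif or Klc and a number, or with Dync or Dynl. The rule found 59 probes of 56 genes among 13709 genes on the array. RefSeq lists 83 protein-coding genes with such symbols, and the other 27 were not analysed here. The cortical fiber sample and the epithelial sample each gave 1 array of poly(A) RNA. Both came from lenses of 13-day-old mice, 5 mice in all, which were dissected with forceps into cortical fibers and into capsules with their adhering epithelium. The labels name no strain, genotype or treatment and do not say whether RNA of the mice was pooled. The free-text description attached to both samples speaks of fetal liver, while the titles, the source names and the design text name the lens.

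Microtubules are hollow polymers of α- and β-tubulin pairs, and γ-tubulin within a ring complex starts new ones. Most kinesins carry cargo toward the plus end of the microtubule, cytoplasmic dynein carries it toward the minus end, and a separate set of kinesins builds and divides the mitotic spindle. In the lens, dividing cells lie in the epithelium, while differentiating fibers leave the cell cycle and elongate with microtubules running along their length. The comparison therefore places spindle kinesins beside transport motors.

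Values are the deposited intensities, given relative to the median of their array. A value at or below 0.5 of that median was treated as being at a floor, and a difference is the log2 intensity in cortex minus that in epithelium. A gene is called higher in cortex or in epithelium where it was at least 3-fold brighter in that sample and reached that array's median. Since each sample has a single array, no replicate, test or p-value exists. Different probes of 1 gene gave log2 differences with a pooled SD of 1.10 and a median SD of 0.59, over 558 genes with at least 2 usable probes. That spread is between probes on the same arrays, and it is the only error the arrays give. It does not cover differences between mice, dissections or repeated arrays. Lower RNA per cell and fewer cells of a type cannot be told apart in such bulk samples.

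The labelled tissues were checked against marker genes. Of 13 fiber cell markers, 11 passed the 3-fold limit in cortex and none did in epithelium. Of 8 epithelial markers, 7 passed it in epithelium. Fiber markers were also bright on the epithelium array, with a summed intensity of 21571 in cortex and 4743 in epithelium. Among 10 ciliary body and pigment cell markers, 1 was higher in cortex and 5 in epithelium, with sums of 16.1 in cortex and 148.5 in epithelium. Of 8 vessel and leukocyte markers, 0 were above the floor in cortex and 1 in epithelium. Of 11 fetal liver and red cell markers, 7 were above the floor in cortex and 5 in epithelium, and Ahsg alone gave 185 of a summed 192 in cortex and 16.9 of 22.1 in epithelium.

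Among the 56 members, 46 were above the floor in cortex and 46 in epithelium, 41 of them on both arrays, and 5 were at the floor on both. Of all members, 6 (10.7%) passed the 3-fold limit in cortex, against 9.41% of all genes. In the other direction 2 (3.57%) were at least 3-fold higher in epithelium, against 8.17% of all genes. The share in cortex is thus near that of genes in general. Of the 51 members above the floor on at least 1 array, 33 (64.7%) were brighter in cortex, against 53.1% of such genes overall. The median log2 difference was 0.38 over the members and 0.00 over all genes. The 6 genes higher in cortex were Dynll2, Tubb2b, Tubg2, Tubb6, Dync1li1 and Klc1, and the 2 higher in epithelium were Tubd1 and Kif18b.

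These counts depended on how the arrays were scaled. After quantile normalization 3 members were higher in cortex and 2 in epithelium. After a loess correction on brightness 5 were higher in cortex and 2 in epithelium. Centring on ribosomal protein genes left 1 member higher in cortex and gave 3 higher in epithelium. The same centring changed the split over all genes to 590 in cortex and 2758 in epithelium, compared with 1290 in cortex and 1120 in epithelium as deposited. Over genes measured above the floor in both samples, it moved the median difference to -0.89, compared with 0.03 as deposited. That scaling takes the same value from every gene above a floor, and values of such genes under it are read relative to this median. Over all genes, which include those at the floor, the median moved to -0.39, and list medians are read relative to that.

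**Figure D1:**
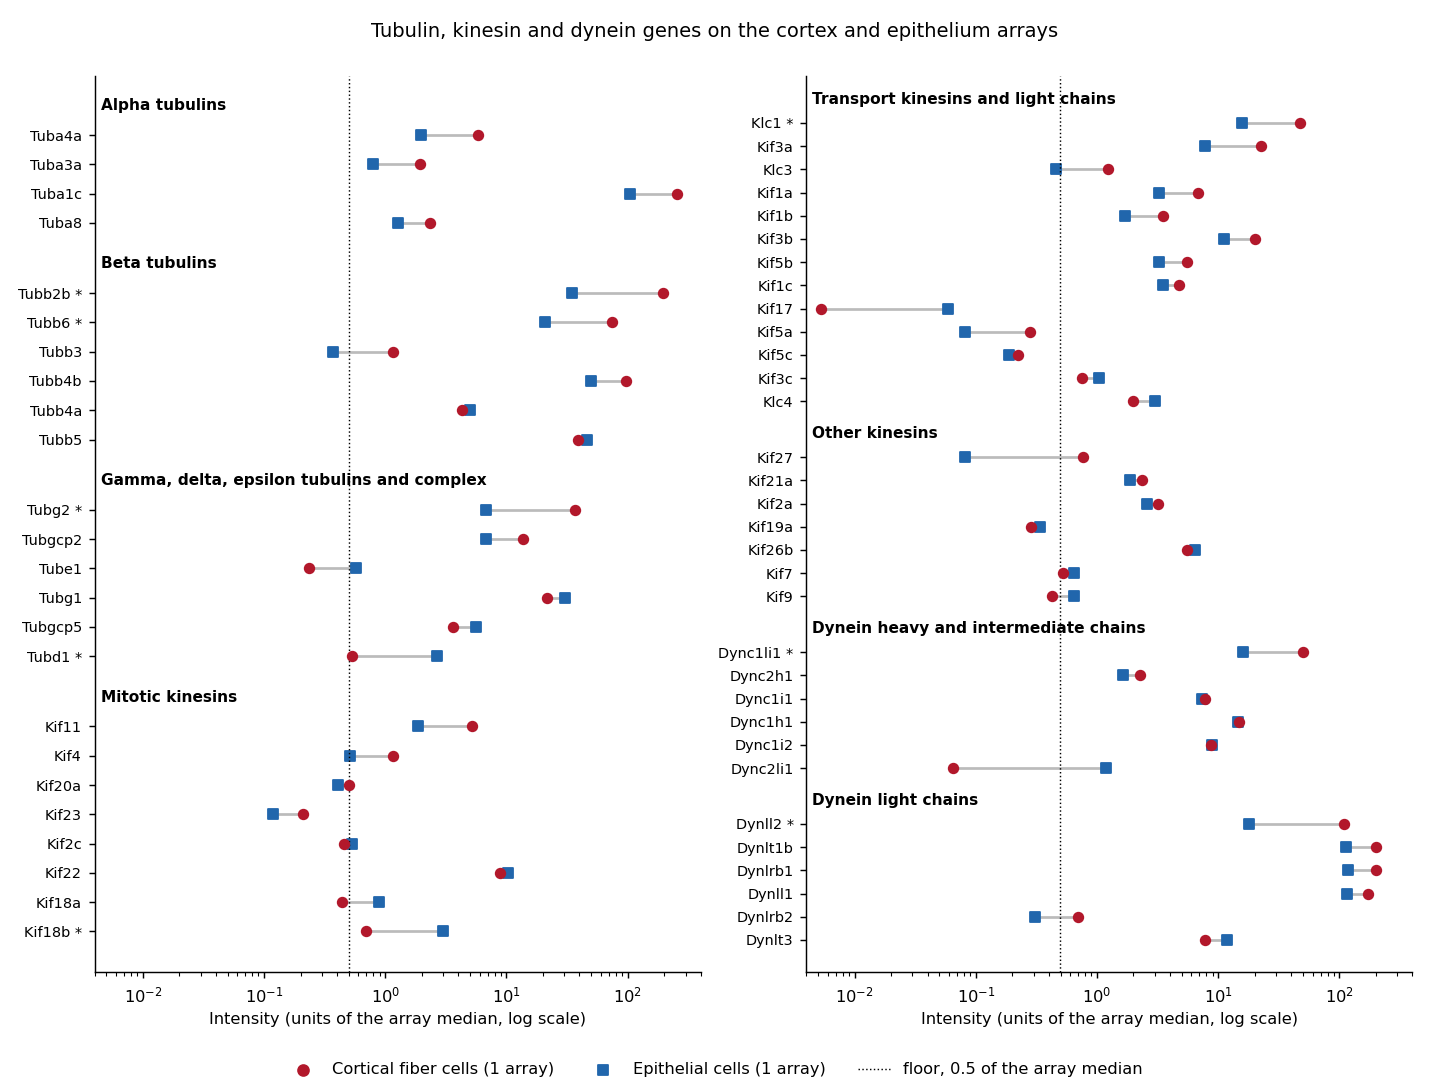
Intensity of each of the 56 genes on the cortex array (red circles) and the epithelium array (blue squares), in units of the array median on a log axis, grouped by role. The dotted line is the floor, and asterisks mark the 8 genes at least 3-fold different. The α-tubulins all lie further right in cortex, while several mitotic kinesins lie at or near the floor on both arrays.

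The 4 measured α-tubulins were all brighter in cortex, by 1.84-fold to 2.96-fold, with a median log2 difference of 1.30. None reached 3-fold. Tuba1c, a widely expressed α-tubulin, stood at 257 in cortex and 105 in epithelium. Tuba4a, whose gene does not encode the terminal tyrosine of most α-tubulins, stood at 5.81 in cortex and 1.96 in epithelium, just under the limit at 2.96-fold. Tuba3a, known mainly from testis, was dim on both arrays with 1.95 in cortex and 0.787 in epithelium. Tuba8, a divergent isotype, stood at 2.35 in cortex and 1.28 in epithelium. All 4 stayed brighter in cortex after quantile or loess normalization. Tuba1c, the brightest, then fell from 1.29 to 0.31 and 0.35, below the median SD between probes (0.59). The deposited differences of the 4 were 0.80 to 1.43 times the pooled SD between probes. Centring on ribosomal protein genes left Tuba8 at -0.04, above the shift of -0.89. α-Tubulin genes are similar in sequence, so signal may be shared between isotypes.

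The β-tubulins divided by isotype. Tubb2b, an isotype of the developing nervous system that is nearly identical to Tubb2a, stood at 195 in cortex and 34.9 in epithelium, which is 5.60-fold (log2 difference 2.49). Tubb6, a β-tubulin of many non-neuronal tissues, stood at 74.9 in cortex and 20.6 in epithelium, 3.63-fold. Both differences lie above the pooled SD between probes, and that of Tubb2b is above 2 such SDs. Tubb2b was also at least 3-fold higher after quantile (1.73) or loess (1.75) normalization and just short of it after ribosomal centring (1.57). Tubb6 passed with the deposited scaling but with none of the 3 others, where its log2 difference lay at 1.32, 1.39 and 0.94.

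The remaining β-tubulins did not reach 3-fold. Tubb4b, a broadly expressed isotype also found in cilia, stood at 96.1 in cortex and 50.1 in epithelium. Tubb5, the common β-tubulin of many tissues, stood at 38.7 in cortex and 45.9 in epithelium, and Tubb4a, a brain isotype, at 4.27 in cortex and 4.97 in epithelium. The last 2 were therefore slightly brighter in epithelium, by less than the spread between probes. Tubb3, the neuronal isotype, stood at 1.15 in cortex and below the floor in epithelium, at least 2.32-fold. With no floor its log2 difference was 1.63 and passed the limit. Markers of retinal and other neurons, measured because Tubb2b and Tubb3 are neuronal isotypes, were above the floor for 5 of 10 genes in cortex and 6 of 10 in epithelium. Their summed intensity was 13.8 in cortex and 7.73 in epithelium, none was at least 3-fold different, and their part in the β-tubulin values was not tested.

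Of the 2 γ-tubulin genes, only Tubg2 passed the 3-fold limit. Tubg2, known for its expression in brain and oocytes, stood at 36.7 in cortex and 6.79 in epithelium, or 5.41-fold (2.43). Tubg1, the γ-tubulin of most cells, stood at 21.7 in cortex and 30.5 in epithelium, 1.41-fold brighter in epithelium. The coding sequences of these genes are close, so the probes may share signal. Tubgcp2, a subunit of the γ-tubulin complex, was measured by 2 probes that gave nearly the same difference. They stood at 13.6 and 11.3 in cortex and at 6.82 and 5.63 in epithelium, 1.99-fold and 2.01-fold. Tubgcp5, another subunit, stood at 3.65 in cortex and 5.62 in epithelium.

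Tubd1 and Tube1 encode δ- and ε-tubulin, which take part in building centriole triplets. Tubd1 stood at 0.528 in cortex, barely above the floor, and at 2.66 in epithelium, a 5.04-fold difference (-2.33). With the floor at the array median its difference was a bound of -1.42 and it no longer passed. Tube1 was at the floor in cortex and at 0.578 in epithelium. Over all 6 genes of this group, 1 passed the limit in each direction, and the list median was -0.35.

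The 8 measured mitotic kinesins did not share a direction. Only 1 passed the 3-fold limit, in epithelium, and the list median was -0.05. Kif18b, which shortens astral microtubules from their plus ends, stood at 0.692 in cortex and 2.98 in epithelium, 4.31-fold (-2.11). The cortex value lies between the floor and the array median, and with the floor at the median the difference was a bound of -1.58, under the limit. Its relative Kif18a, which aligns chromosomes at the spindle equator, was below the floor in cortex and at 0.890 in epithelium, at least 1.78-fold. Of 10 ciliary body and pigment cell markers, 5 were also higher in epithelium and 1 (Dct) in cortex, and their part in the Tubd1 and Kif18b values was not tested.

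Kif11 (Eg5), the motor that pushes spindle poles apart, went the other way. It stood at 5.15 in cortex and 1.85 in epithelium, 2.78-fold brighter in cortex (1.47). After loess on brightness it reached 1.62 and passed the limit, and after ribosomal centring it was 0.56. Kif4, a chromokinesin that binds Prc1 at the spindle midzone, was dim with 1.16 in cortex and 0.513 in epithelium, 2.27-fold. Its difference shrank to 0.22 when the floor was raised to the array median. Kif22, a chromokinesin that pushes chromosome arms away from the poles, was clearly above the floor and nearly equal, with 8.89 in cortex and 10.2 in epithelium.

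The other mitotic kinesins were at or near the floor. Kif2c, a microtubule depolymerase at centromeres, stood at 0.458 in cortex and 0.534 in epithelium. Kif20a, a cytokinesis motor, stood at 0.502 in cortex and 0.410 in epithelium. Kif23, which forms the centralspindlin complex with Racgap1, was below the floor on both arrays. For 4 of the 8 mitotic kinesins, then, at least 1 array gave no value above the floor, and the size of any difference is not known.

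The start regions of the mitotic kinesin genes are shown because they share letters that the choice of genes did not use. Genes of the G2 and M phases are known to carry a CHR element, with the letters TTTGAA, close to the start of transcription, often downstream of CCAAT boxes that bind NF-Y. RefSeq windows of 250 bases before to 50 bases after the start (GRCm38.p6) were available for 7 of the 8 mitotic kinesins and for 45 of the 56 members. Both strands were searched, and the letters of the 2 motifs do not overlap. The stretches below run from 70 bases before to 30 bases after the start, 5′ to 3′ on the gene's strand, with TTTGAA (or its reverse complement TTCAAA) and CCAAT (or its reverse complement ATTGG) in capitals.
Kif11, chr19:37376312-37376411, plus strand: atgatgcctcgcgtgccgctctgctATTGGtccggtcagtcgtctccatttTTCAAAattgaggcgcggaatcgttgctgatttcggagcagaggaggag
Kif22, chr7:127042391-127042490, minus strand: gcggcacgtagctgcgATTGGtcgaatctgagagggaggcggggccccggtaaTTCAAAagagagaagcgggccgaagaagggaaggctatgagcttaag
Kif18b, chr11:102925095-102925194, minus strand: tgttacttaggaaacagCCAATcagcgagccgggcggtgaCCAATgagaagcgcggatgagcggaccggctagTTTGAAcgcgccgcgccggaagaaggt
Kif23, chr9:61946770-61946869, minus strand: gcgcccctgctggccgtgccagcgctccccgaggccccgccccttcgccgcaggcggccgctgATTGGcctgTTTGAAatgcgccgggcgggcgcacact
Kif4, chrX:100625995-100626094, plus strand: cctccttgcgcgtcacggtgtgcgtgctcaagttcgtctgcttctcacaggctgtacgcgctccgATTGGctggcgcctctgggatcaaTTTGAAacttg

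Both motifs stood in this stretch for 5 of the 7 mitotic kinesins (71.4%), against 0.901% of all 32851 RefSeq windows. TTTGAA, whether or not CCAAT was there too, stood in this stretch in 5.11% of all windows. CCAAT, counted likewise, stood there in 16.1%. Over the other members, 0 of 44 windows held both. The order was the same in each of the 5, with the CCAAT letters upstream of TTTGAA, which began 19 bases before the start in Kif11, 17 before it in Kif22, and at positions 3, 4 and 20 after it in Kif23, Kif18b and Kif4. Kif2c held TTTGAA only further upstream, at position -103, and neither motif was found in the window of Kif18a. The 5 genes with both motifs include the one higher in epithelium (Kif18b), the nearly equal one (Kif22), the 2 brighter in cortex (Kif11 and Kif4) and the one at the floor (Kif23). A match of letters is a description of the window and says nothing about what binds there.

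Most windows lack these motifs. Of the 44 windows of the other members, 2 held TTTGAA and 8 held CCAAT in this stretch. Tubd1, higher in epithelium, also held neither, so a lack of motifs does not mark the genes higher in cortex. As examples, the windows of 3 genes that were higher in cortex and are not spindle motors are given over the same stretch, where neither motif occurs.
Tubg2, chr11:101155814-101155913, plus strand: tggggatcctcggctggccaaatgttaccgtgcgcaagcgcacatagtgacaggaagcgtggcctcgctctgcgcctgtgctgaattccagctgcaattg
Dync1li1, chr9:114688761-114688860, plus strand: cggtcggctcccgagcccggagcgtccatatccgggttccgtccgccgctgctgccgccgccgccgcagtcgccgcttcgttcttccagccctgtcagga
Klc1, chr12:111758798-111758897, plus strand: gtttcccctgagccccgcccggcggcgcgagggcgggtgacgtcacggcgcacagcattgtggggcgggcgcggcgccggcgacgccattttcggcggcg

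**Figure D2:**
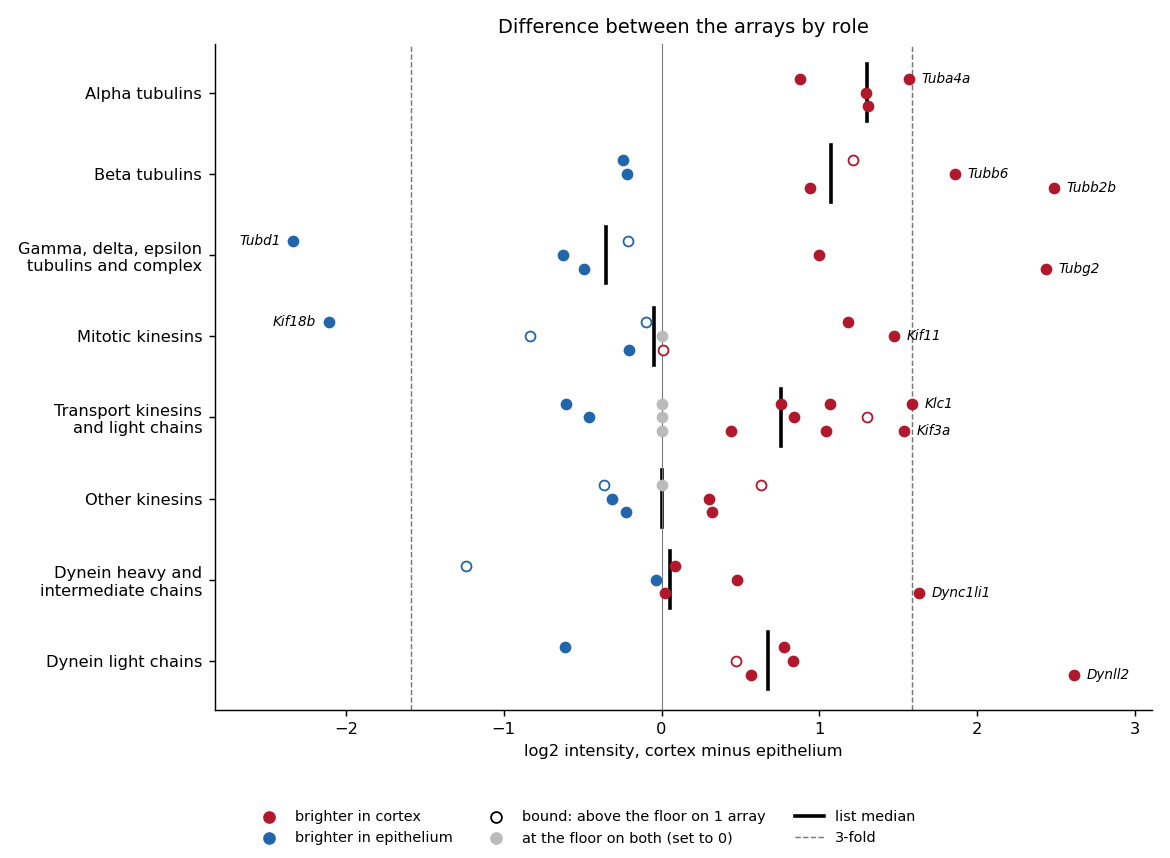
The log2 intensity in cortex minus epithelium for each gene, by role, where black bars are list medians, dashed lines mark 3-fold, open circles are bounds and grey circles are genes at the floor on both arrays. The α-tubulins (median 1.30) and β-tubulins (1.08) lie mostly right of 0, and the mitotic kinesins (-0.05) lie on both sides of it.

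Transport kinesins and kinesin light chains were mostly brighter in cortex. Of 13 genes, 10 were above the floor on at least 1 array, 8 of these were brighter in cortex and 2 in epithelium. The list median over all 13 was 0.76. One passed 3-fold, in cortex. Klc1, a light chain that links kinesin-1 to cargo, stood at 47.6 in cortex and 15.8 in epithelium. Its log2 difference of 1.59 lies on the limit itself (1.58), and with each of the 3 other scalings it fell short (1.14, 1.27 and 0.67). Kif3a, a motor subunit of kinesin-2 in cilia and cargo transport, lies just under the limit at 2.90-fold, with 22.7 in cortex and 7.83 in epithelium. Its partner Kif3b stood at 20.1 in cortex and 11.2 in epithelium, 1.79-fold. Both subunits of the pair were thus brighter in cortex, Kif3a by 1.40 and Kif3b by 0.76 times the pooled SD between probes. Kif3c, the alternative partner, was dim with 0.753 in cortex and 1.04 in epithelium.

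Of the kinesin-1 heavy chains, Kif5b, the form used by most cells, stood at 5.50 in cortex and 3.26 in epithelium, 1.69-fold. The neuronal forms Kif5a and Kif5c were at the floor on both arrays, as was Kif17, a kinesin of dendrites and cilia. Kif1a, which carries synaptic vesicle precursors in neurons, stood at 6.81 in cortex and 3.25 in epithelium. Kif1b, a kinesin-3 relative, stood at 3.53 in cortex and 1.72 in epithelium. Both were brighter in cortex, Kif1a by 2.10-fold and Kif1b by 2.06-fold. Kif1c was measured by 2 probes, one with 4.77 in cortex and 3.51 in epithelium, the other below the floor in cortex and at 0.520 in epithelium. The light chain Klc4 was 1.52-fold brighter in epithelium, with 1.98 in cortex and 3.02 in epithelium, and Klc3, known from spermatids, was at least 2.47-fold brighter in cortex.

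Cytoplasmic dynein divided by subunit. Dync1h1, the motor heavy chain, was nearly equal, with 14.8 in cortex and 14.6 in epithelium. The intermediate chains Dync1i1 (7.75 in cortex and 7.31 in epithelium) and Dync1i2 (8.68 in cortex and 8.90 in epithelium) were equal to within 1.06-fold. Dync1li1, a light intermediate chain that connects dynein to cargo adaptors, stood at 49.8 in cortex and 16.1 in epithelium, 3.10-fold. Under the 3 other scalings its log2 difference was 1.18, 1.30 and 0.71, short of the limit. So 3 core subunits of 1 complex showed no difference beyond the spread between probes, and Dync1li1 passed with the deposited scaling alone among the 4 scalings. Of the dynein-2 subunits, which work in cilia, Dync2h1 stood at 2.28 in cortex and 1.64 in epithelium. Dync2li1 was below the floor in cortex and at 1.18 in epithelium, at least 2.36-fold. After ribosomal centring, and also with no floor, it reached 3-fold.

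Among the dynein light chains, 1 of 6 passed. Dynll2, an LC8 light chain that also binds many partners outside dynein, stood at 110 in cortex and 18.0 in epithelium, 6.12-fold (2.61). It was the only member at least 3-fold higher in cortex under all 4 scalings, at 2.07 after quantile normalization, 2.10 after loess and 1.70 after ribosomal centring. Its close relative Dynll1 stood at 172 in cortex and 116 in epithelium, 1.48-fold. Dynlrb1, a roadblock light chain, stood at 200 in cortex and 117 in epithelium, and Dynlt1b, a Tctex light chain with near-identical gene copies, at 200 in cortex and 112 in epithelium. These 3 bright genes changed sign under quantile and loess scaling (-0.08 to -0.39), so no direction can be given for them. After ribosomal centring Dynlt1b was at -0.08, Dynlrb1 at -0.14 and Dynll1 at -0.35. All 3 lie above the shift of -0.89 which that scaling gave to genes above the floor on both arrays. Dynlt3 stood at 7.75 in cortex and 11.9 in epithelium, and Dynlrb2, a form of ciliated cells, at 0.691 in cortex and below the floor in epithelium.

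Set side by side, the transport motors (transport kinesins, light chains and all dynein chains, 25 genes) included 3 genes past the limit in cortex and 0 past it in epithelium, and their median log2 difference was 0.48. Of the mitotic kinesins, 0 passed it in cortex and 1 did in epithelium, and their median was -0.05. The 3 transport motors are 12% of that list, beside 9.41% of all genes higher in cortex, and the 1 mitotic kinesin is 12.5% of its list, beside 8.17% of all genes higher in epithelium. Both shares are near those of genes in general. After ribosomal centring the medians were -0.14 for transport motors and -0.96 for mitotic kinesins, and after loess they were 0.16 and -0.15. After quantile normalization they were 0.00 and -0.10. The gap between the medians was 0.10 to 0.82 over these scalings. Genes at the floor on both arrays enter the medians as 0, with the deposited scaling 3 transport motors and 1 mitotic kinesin, so part of that range comes from the floor, and no test was made. The 7 other kinesins lay near 0, with none past the limit and log2 differences of -0.36 to 0.63. Among them Kif2a, a microtubule depolymerase, stood at 3.16 in cortex and 2.57 in epithelium, and Kif26b, a kinesin without motor activity, at 5.54 in cortex and 6.47 in epithelium. Kif21a, which restrains microtubule growth, stood at 2.35 in cortex and 1.88 in epithelium, while its other probe was below the floor in both samples. Kif7, a regulator of Hedgehog signalling at the tip of the cilium, stood at 0.519 in cortex and 0.646 in epithelium. The cilium-linked kinesins Kif9, Kif27 and Kif19a were at or near the floor.

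**Figure D3:**
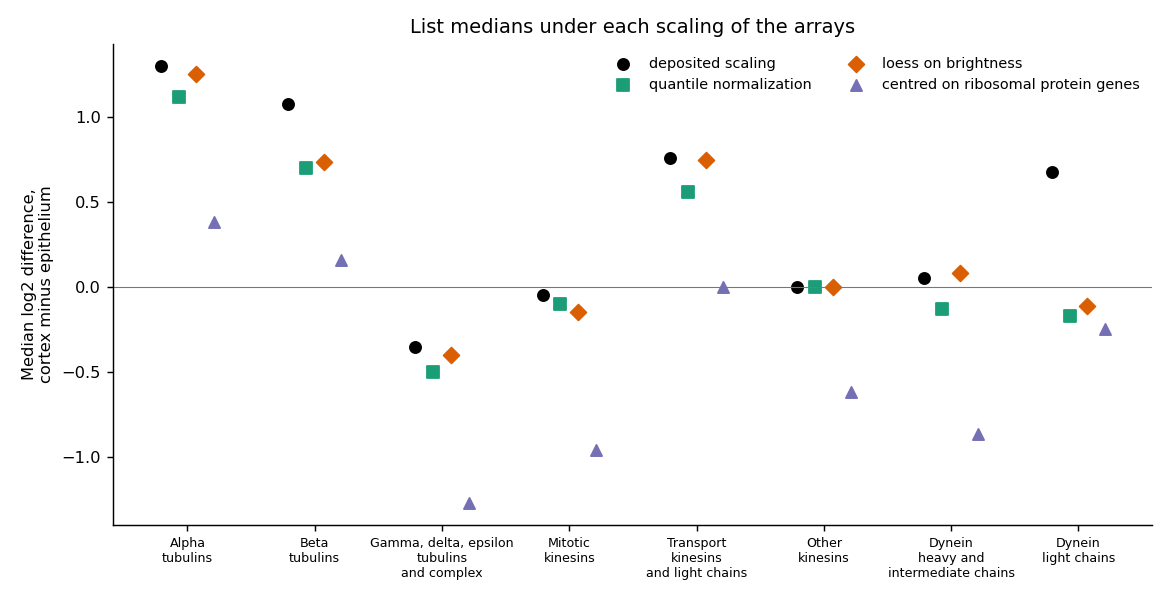
Median log2 difference, cortex minus epithelium, of each role list under the deposited scaling (black circles), quantile normalization, loess on brightness and centring on ribosomal protein genes. The α- and β-tubulin medians stay above 0 in all 4. The median of the dynein light chains is 0.67 as deposited and below 0 after quantile or loess normalization. After ribosomal centring it is -0.25, where the median was -0.39 over all genes and -0.89 over genes above the floor on both arrays.

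Related genes on the same arrays were then set beside each other. For 11 pairs the log2 difference of the second gene was subtracted from that of the first. The pairs were listed after the values had been seen. Taking the probe spread for both genes, the SD of such a gap is 1.55, and the widest gap is below 2 such SDs. The gap was 2.93 for Tubg2 over Tubg1 and 2.73 for Tubb2b over Tubb5. It was 2.19 for Klc1 over Klc4 and 2.04 for Dynll2 over Dynll1. Over 6 alternative scalings, floors and probe summaries these gaps ranged from 2.93 to 3.12, from 2.49 to 2.73, from 1.70 to 2.19 and from 2.04 to 2.46. Of these alternatives, only quantile normalization and loess could move the gaps. Ribosomal centring takes the same value from both genes of a pair. The other floors and probe averaging leave these genes unchanged, so the ranges say little about stability. At the other end, Kif1a and Kif1b (0.03) and Dync1i1 and Dync1i2 (0.12) differed hardly at all. The pair of light chains Dynlt3 and Dynlt1b had a gap of -1.45, which shrank to -0.52 under its most distant alternative.

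**Figure D4:**
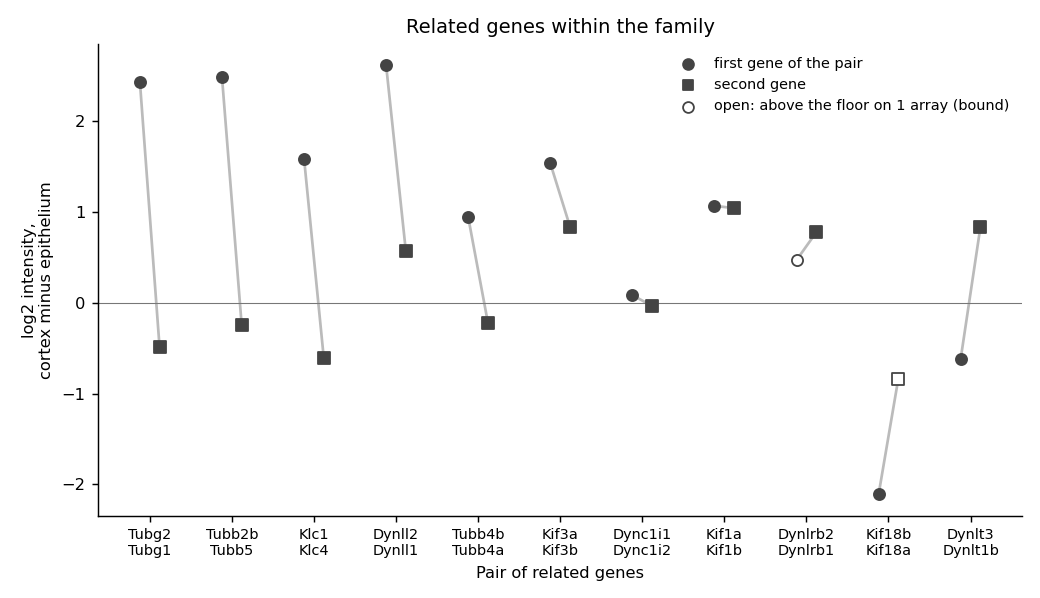
Log2 intensity in cortex minus epithelium for 11 pairs of related genes, with the first gene of each pair as a circle and the second as a square, joined by a line. The γ-tubulin pair shows the widest gap at 2.93, and open symbols are bounds.

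Genes that work with these motors were examined from separate lists. Among 21 spindle partners of the mitotic kinesins, 1 passed the limit in cortex and 6 did in epithelium, with a list median of -0.93. These are 4.76% of the list in cortex and 28.6% in epithelium, beside 9.41% and 8.17% of all genes. Prc1, which bundles microtubules at the midzone, was below the floor in cortex and at 13.1 in epithelium, at least 26.3-fold. Cdca8 and Birc5 belong to the chromosomal passenger complex. Cdca8 stood at 0.546 in cortex and 4.94 in epithelium, 9.03-fold, and Birc5 at 2.45 in cortex and 17.2 in epithelium, 7.01-fold. The cortex value of Cdca8 is barely above the floor, so the size of its fold depends on the floor. Nuf2, a kinetochore protein, was the 1 that passed in cortex, at 41.6 in cortex and 4.99 in epithelium, 8.34-fold. Of the 19 partners above the floor on at least 1 array, 4 were brighter in cortex and 15 in epithelium. The mitotic kinesins thus stood at a median of -0.05 beside -0.93 for these partners, and the difference between the lists was not tested. Of the 21 partners, 11 were above the floor on both arrays. The value -0.93 is itself a bound (Aurkb), so its size depends on the floor. Raising the floor to each array's median gave -0.36 for the partners and 0.00 for the mitotic kinesins. Leaving out the floor gave -1.41 (20 partners) and 0.04. After quantile, loess and ribosomal scaling the partners stood at -0.95, -0.85 and -1.85, and the mitotic kinesins at -0.10, -0.15 and -0.96. Racgap1, the partner of Kif23, stood at 2.86 in cortex and 3.92 in epithelium, and is named for that link.

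Dynactin and dynein regulators (16 genes) had 2 genes past the limit in each direction and a median of 0.00. That is 12.5% in each direction, near the shares over all genes (9.41% in cortex and 8.17% in epithelium). Ndel1 and Nde1 are related dynein regulators and differed in opposite directions. Ndel1 stood at 26.4 in cortex and 8.10 in epithelium, and Nde1 at 1.55 in cortex and 5.31 in epithelium. Actr1a, which forms the dynactin filament, stood at 5.84 in cortex and 1.89 in epithelium, 3.08-fold. Spdl1, a dynein adaptor at kinetochores, was below the floor in cortex and at 3.11 in epithelium, at least 6.23-fold. After quantile normalization 1 gene of this list passed in cortex, and 0 did after ribosomal centring. Of the 4 kinesin genes outside the symbol rule, Kifc3, a minus-end kinesin linked to cell junctions, was 10.5-fold higher in cortex, with 7.88 in cortex and 0.749 in epithelium. With the epithelium value between the floor and the array median, the size of that fold depends on the floor. Kifap3, the third subunit of kinesin-2, was nearly equal at 5.46 in cortex and 6.42 in epithelium. Kifc2 and Kifc5b lay below the array median on both arrays.

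Tubulin folding and modifying enzymes (14 genes) had 3 genes higher in each sample and a median of -0.15. Svbp, the partner of the vasohibin enzymes that remove the terminal tyrosine of α-tubulin, stood at 476 in cortex and 59.8 in epithelium, 7.96-fold. Vash2, one of those enzymes, stood at 0.599 in cortex and 4.40 in epithelium. The 2 tubulin deacetylase genes also parted. Sirt2 stood at 150 in cortex and 29.4 in epithelium, 5.13-fold, and Hdac6 at 2.19 in cortex and 12.7 in epithelium, 5.79-fold. The other 2 genes past the limit were the folding cofactor gene Tbcb, higher in cortex, and the tubulin acetyltransferase gene Atat1, higher in epithelium. Of 28 microtubule-associated, plus-end and severing proteins, 2 passed the limit in each direction, and 8 were at the floor on both arrays. The share past the limit was 7.14% in each direction, near those of all genes. Map7, which recruits kinesin-1 to microtubules, stood at 2.11 in cortex and 15.9 in epithelium, 7.54-fold. Stmn1, which sequesters tubulin dimers, stood at 10.4 in cortex and 36.6 in epithelium, 3.51-fold. Map1b was at least 5.38-fold and the minus-end binding protein gene Camsap2 at least 3.40-fold higher in cortex, where Map1b stood at 2.68 and Camsap2 at 1.70, both below the floor in epithelium. When the floor was raised to the array median, 0 genes of the list passed in cortex, and 0 did after ribosomal centring or where the brighter array had to reach 4 times its median. With no floor, or with probes averaged, 1 did. Map1b has 1 probe and Camsap2 has 2, so Camsap2 was the gene that no longer passed once probes were averaged.

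**Figure D5:**
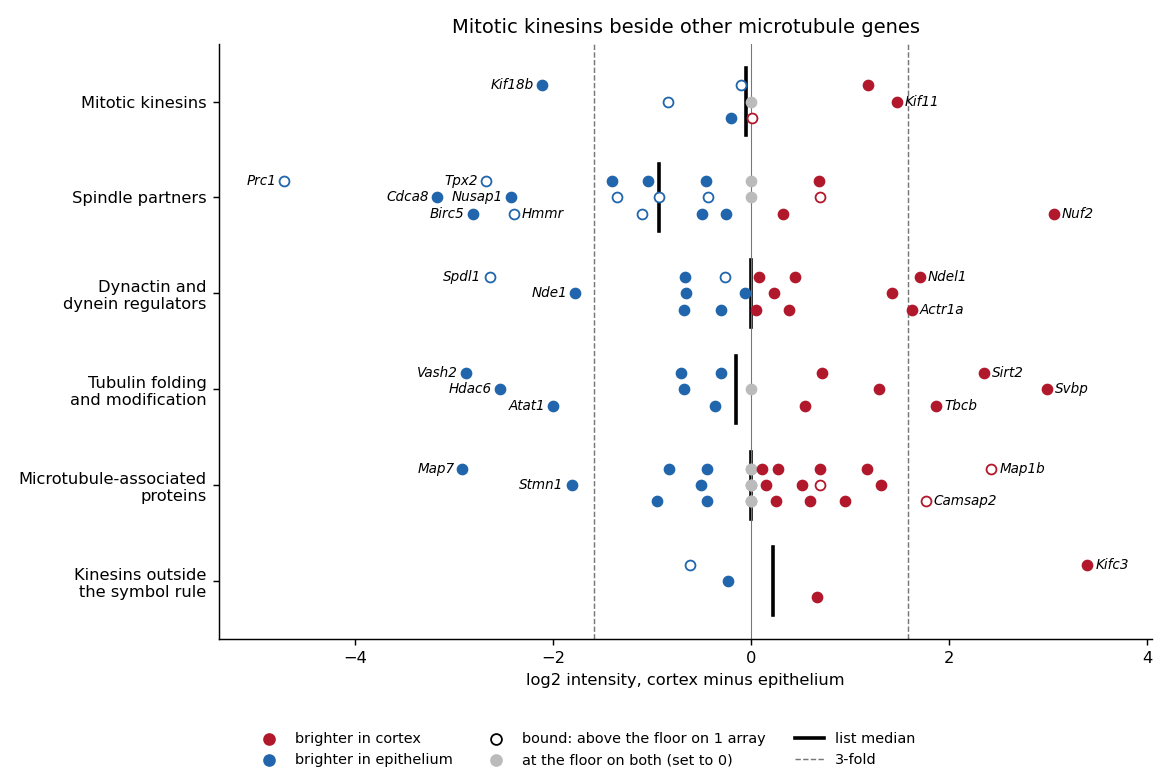
Log2 intensity in cortex minus epithelium for the mitotic kinesins and for 5 lists of other microtubule genes, with list medians as black bars, 3-fold as dashed lines, bounds as open circles and genes at the floor on both arrays in grey. The spindle partners (median -0.93) lie mostly left of 0, and the mitotic kinesins (median -0.05) are spread around it.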

How the data were processed

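Per the labels, biotin-labelled complementary RNA was hybridized to a 1-colour CodeLink mouse bioarray, detected with Cy5 and read with the CodeLink software. The authors deposited 1 linear intensity per probe and array, with medians of 0.998 and 0.998 and values below 0 for 161 cortex and 74 epithelium probes. How they scaled the arrays and subtracted background is not stated. Probes lacking a value on either array were left out, which affected no member probe. Genes were named from the platform annotation (15120 of 19819 probes with 1 symbol, 38 with several, 4661 with none), and all 56 members carry the same symbol in RefSeq. Probe positions were not used.

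The deposited scaling was kept, values were raised to a floor of 0.5 of the array median, and log2 was taken. The brightest probe (highest mean log2) stood for a gene. The limit was 3-fold, with the brighter array at or above its median. A gene above the floor on 1 array has a bound, and 1 at the floor on both was set to 0. The procedure was tested on simulated data, with less noise than the spread between probes and changes only in genes well above the floor. That test checks the calculation and does not show how reliable the calls are in these data. Named genes are all members past the limit, the 3 brightest of each role list, every mitotic kinesin, members with 2 probes, and up to 4 genes of each other list with the largest difference. Other named members complete their groups and were chosen after their values were seen. The members and lists were chosen with earlier results of these data known. Alternatives were quantile normalization, loess (span 0.3), centring on 64 ribosomal protein genes, other floors, averaging a gene's probes, 2-fold and 5-fold limits, and 2 other filters on dim genes. Python 3.11.15, numpy 2.4.6, pandas 2.3.3, statsmodels 0.14.6 and matplotlib 3.10.9 were used. The number of arrays, 1 per sample, limits the precision of every value.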

Additional observations from a re-analysis of the deposited data

How the results depend on the processing

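No paired analysis was possible because each sample has 1 array. Over 6 alternatives each, 258 of the members' log2 differences moved by less than the median SD between probes (0.59) and 78 by more, and no called member changed sign. Much of this split was fixed by the settings. Probe averaging can move only the 3 members with 2 probes, and other floors only members near or below them. Ribosomal centring moves all 51 members above a floor by the same amount, which exceeds 0.59. The split is therefore no measure of stability. Centring on ribosomal protein genes moved the most. It gave 590 genes higher in cortex and 2758 in epithelium over all genes, 1 in cortex and 3 in epithelium among the members, and 1 in each direction among transport motors. The list medians were then 0.38 for α-tubulins, 0.16 for β-tubulins, -1.27 for the γ-, δ- and ε-tubulin group, -0.96 for mitotic kinesins, 0.00 for transport kinesins, -0.62 for other kinesins, -0.86 for dynein heavy and intermediate chains, -0.25 for dynein light chains, -0.14 for transport motors and -0.22 for all members. Quantile normalization gave 3 members and 1 transport motor higher in cortex, and loess gave 1 transport motor and 1 mitotic kinesin. The dynein light chain median was -0.17 after the first and -0.11 after the second. With the floor at the array median 0 members, and so 0 mitotic kinesins, were higher in epithelium, because Tubd1 and Kif18b were then measured against a higher floor. Both counts were also 0 where the brighter array had to reach 4 times its median. With no floor 1 transport motor was higher in epithelium. A 2-fold limit gave 2243 genes in cortex and 2101 in epithelium, with 16 members, 7 transport motors and 2 mitotic kinesins in cortex and 1 transport motor in epithelium. A 5-fold limit gave 698 genes in cortex and 477 in epithelium, 3 members in cortex and 1 in epithelium, 1 transport motor in cortex and 0 mitotic kinesins in epithelium. The cause of the shifts between scalings was not tested. Of the smaller role and pathway counts, 220 stayed within 1.5 times and 40 did not.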

Other observations

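Log2 differences above 2 pooled SDs between probes (2.19) were found for 4 of the 56 members (7.14%), namely Dynll2, Tubb2b, Tubg2 and Tubd1, and for 1340 of all 13709 genes (9.77%). Axonemal dyneins, which move motile cilia, gave little signal. Of 6 measured, 3 were at the floor on both arrays and none was at least 3-fold different. Dnal4, a light chain gene, was below the floor in cortex and at 1.05 in epithelium.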
